A study of Mus musculus with 24 samples.

Results

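Serum response factor (SRF), its coactivators and the muscle actin gene Acta1 were followed by the table's gene names across all libraries. Of the 7 names in the set (Srf, Mrtfa, Mrtfb, Elk1, Elk3, Elk4 and Acta1), 6 were found among the 12224 rows of the table. All 6 stood among the 11557 rows tested, which were those whose average over the 24 libraries reached 1 scaled unit, the unit explained below. Elk4 is not analysed here.

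SRF is a transcription factor that binds DNA at a motif called the CArG box and acts through partner proteins. The myocardin-related factors MRTF-A and MRTF-B, encoded by Mrtfa and Mrtfb, bind monomeric actin and reach the nucleus when actin assembles into filaments. The ternary complex factors ELK1, ELK3 and ELK4 belong to the ETS family, contact SRF and an adjacent ETS site, and are phosphorylated by the kinase ERK. Cytoskeletal genes are the usual targets of the MRTF branch and immediate-early genes those of the ternary complex branch. Acta1 encodes skeletal muscle alpha-actin, an SRF target known mainly from striated muscle.

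Poly(A) RNA was sequenced from mouse mpkCCD cells, an epithelial line of the cortical collecting duct, grown on permeable supports for 9 days without the vasopressin analogue dDAVP and then held in a simpler medium for 24 h. The groups, of 6 libraries each, were WT cells with agonist, WT cells with vehicle, Gpr39 knockout (KO) cells with agonist and KO cells with vehicle. The agonist groups received cpd1324, which activates the zinc-sensing receptor GPR39, at 1 µM for 2 h from the basolateral side. The vehicle groups received 0.1% DMSO, and DMSO is not stated for the agonist groups. In all 4 groups 10 µM ZnCl2 was present. The series title names AQP2 trafficking and cytoskeletal organization as its subject. The labels give neither the number of KO clones nor the edited part of Gpr39, and they do not say whether replicates were separate cultures, so p-values measure the spread between these libraries only.

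Levels are in scaled units, the deposited reads per library factor and gene length times 1 constant. The labels do not say how gene length was defined, so comparisons of level between genes rest on the deposited lengths. Gpr39 was used to check the genotype labels, not the treatment labels. It had 8.20, 9.22 and 10.6 scaled units (lowest, median and highest of 6) in KO cells with agonist and 8.52, 9.25 and 10.4 in KO cells with vehicle, against 27.1, 29.2 and 31.1 in WT cells with agonist and 20.3, 20.9 and 24.5 in WT cells with vehicle. Every KO library lay below every WT library. Recovered reads came to between 29.8 and 51.9 M per library. Of 15 principal cell markers, 12 were in the table and all 12 passed the filter, among them Aqp2, Avpr2 and Scnn1a. With agonist in WT cells 3 of the 12 were higher and 5 lower (adjusted p below 0.05 in limma). Under vehicle 4 were higher and 3 lower in KO than in WT cells, with log2 fold changes from −1.83 to 2.29. Passing the filter therefore does not show the same marker profile in all groups. Some listed markers of intercalated cells and of endothelial and immune cells passed the filter as well. Fewer cells making a transcript and less of it per cell cannot be told apart in bulk RNA. Library KO agonist 2 had a profile nearer the other KO vehicle libraries (r = 0.818 over all rows tested) than the other KO agonist libraries (r = 0.697), and KO vehicle 6 correlated with its own group at 0.466. Values without both libraries are given beside the main KO results of the members.

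Summed scaled units were 1.18 times as high in WT libraries with agonist as in those with vehicle, against 0.976 times in KO cells. Scaling every library to the same total moved the median log2 fold change of all rows to −0.24 for the agonist effect in WT cells, from −0.01 as deposited. The same step moved it to 0.28 both for the KO-minus-WT difference and for KO over WT cells given agonist. Small changes below therefore hold relative to the deposited scaling. Those of the members that turn under another one are named, while single genes outside the set are mostly given as deposited only.

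Srf rose about 4-fold with the agonist in WT cells, and its difference in KO cells did not pass the test. It had 349.6, 388 and 447 scaled units (lowest, median and highest of 6) in WT cells with agonist, against 86.2, 94.4 and 108 in WT cells with vehicle. The groups did not overlap, and the lowest agonist library held more than 3 times the level of the highest vehicle library. In KO cells Srf had 79.8, 86.5 and 101.1 scaled units with agonist, against 82.7, 93.6 and 117 with vehicle. These groups overlapped with each other and with WT vehicle, so the high level was seen in WT cells with agonist alone among the 4 groups.

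On the log2(scaled units + 0.5) scale Srf rose by 2.03 ± 0.08 in WT cells with agonist (SE, n = 6 per group; adjusted p = 4.10e-17 in limma). The mean level was 4.11 times that of WT vehicle, 392 ± 37.4 against 95.4 ± 8.20 scaled units (SD, n = 6 each). In KO cells its log2 fold change of −0.14 ± 0.08 missed the threshold (adjusted p = 0.234 in limma), with a 95% interval of −0.31 to 0.02. The KO effect minus the WT effect was −2.18 ± 0.11 (adjusted p = 3.57e-14 in limma). Without KO agonist 2 and KO vehicle 6 the KO value was −0.19 (adjusted p = 0.0925 in limma) and the difference −2.22. By fold change in WT cells Srf ranked 105 of 11557 rows.

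The RefSeq promoter of Srf, on the minus strand of chromosome 17 (GRCm38.p6, chr17:46556113-46556412), is shown because it is the only window of the set with 2 CArG boxes. The sequence runs from 250 bases before the start site to 50 bases from it on, 5′ to 3′, with the start base counted as 1, and capitals mark the ETS core CCGGAA and both CArG boxes.
Srf promoter: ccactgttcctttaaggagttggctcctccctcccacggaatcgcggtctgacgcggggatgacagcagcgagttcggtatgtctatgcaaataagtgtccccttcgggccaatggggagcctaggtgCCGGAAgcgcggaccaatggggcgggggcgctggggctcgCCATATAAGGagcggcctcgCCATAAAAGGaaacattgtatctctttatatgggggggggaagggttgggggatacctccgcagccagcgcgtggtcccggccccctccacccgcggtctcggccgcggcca
The boxes lie at −82 to −73 and −62 to −53 from the start site and the ETS core at −122 to −117, with no overlap between motifs. Among all 32851 RefSeq promoter windows of this length, 535 (1.63%) hold a CArG box, 6 (0.0183%) hold 2 and 60 (0.183%) hold a CArG box and the ETS core CCGGAA, searched on both strands. A match is a description of these letters and not a measured binding site.

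**Figure D1:**
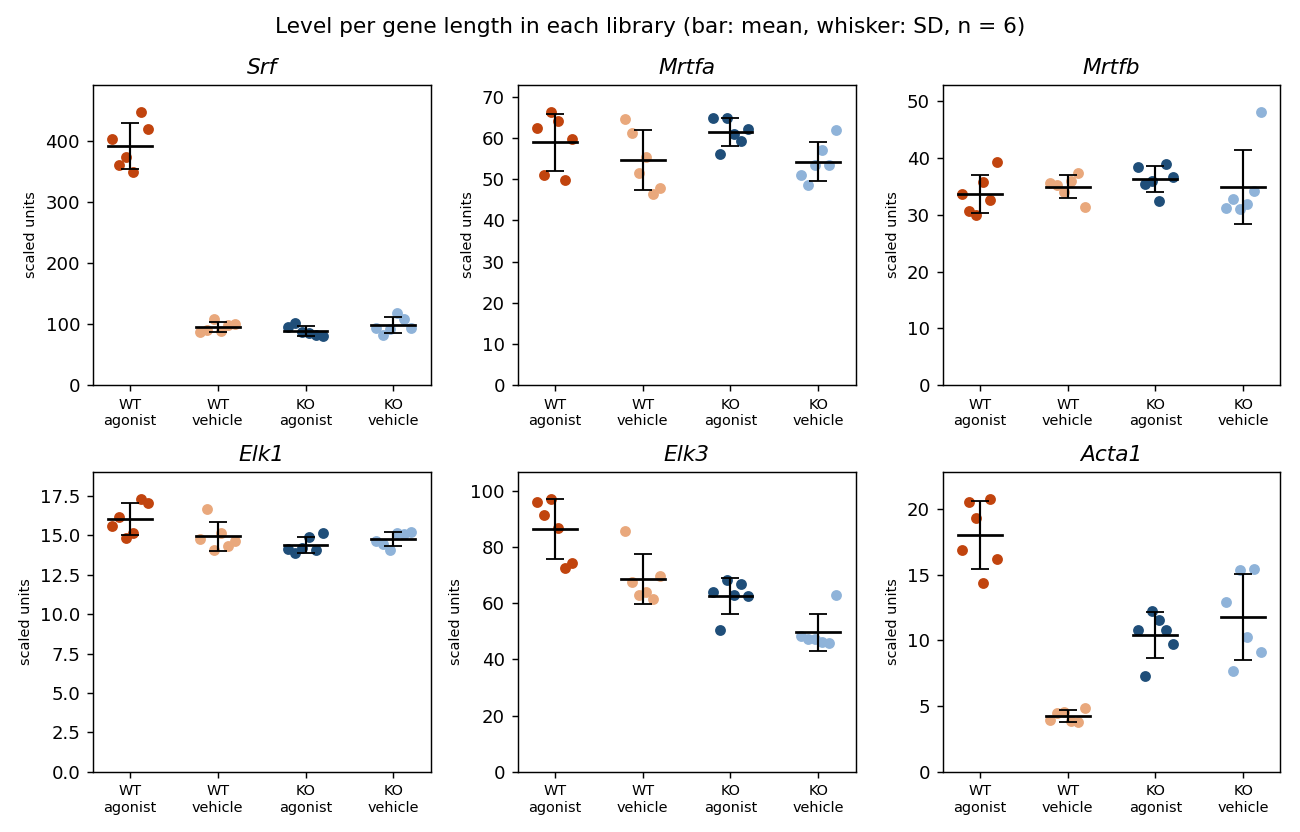
Level of each member in scaled units (y axis, from 0) in the 24 libraries by group; points are libraries, bars are means and whiskers are SD (n = 6). Srf in WT cells with agonist spans 349.6 to 447 scaled units and lies clear of all other groups, and Acta1 is lowest in WT cells with vehicle, at 3.82 to 4.88.

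The actin-sensing coactivators did not change with the agonist in a way that passed the test. Mrtfa had 49.9, 61.1 and 66.3 scaled units in WT cells with agonist, against 46.5, 53.5 and 64.6 in WT cells with vehicle. KO cells had 56.1, 61.6 and 65.0 scaled units of Mrtfa with agonist, against 48.6, 53.4 and 61.9 with vehicle. The ranges overlapped in both genotypes. The agonist effect on Mrtfa was 0.11 ± 0.08 in WT cells (adjusted p = 0.236 in limma; 95% interval −0.05 to 0.28). In KO cells it was 0.18 ± 0.08 (adjusted p = 0.145 in limma; unadjusted 95% interval 0.01 to 0.35). These effects differed by 0.07 ± 0.11 (adjusted p = 0.678 in limma). Without KO agonist 2 and KO vehicle 6 the KO value for Mrtfa was 0.24 and passed the test (adjusted p = 0.0396 in limma).

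Mrtfb had 30.1, 33.1 and 39.2 scaled units in WT cells with agonist, against 31.4, 35.4 and 37.4 in WT cells with vehicle. KO cells had 32.4, 36.3 and 38.9 scaled units of Mrtfb with agonist, against 31.0, 32.4 and 48.1 with vehicle, where KO vehicle 6 held the 48.1. In the other 23 libraries Mrtfb lay between 30.1 and 39.2 scaled units, and all 4 groups overlapped. The agonist effect on Mrtfb was −0.06 ± 0.08 in WT cells (adjusted p = 0.583 in limma; 95% interval −0.23 to 0.12) and 0.07 ± 0.08 in KO cells (adjusted p = 0.597). Without KO agonist 2 and KO vehicle 6 the KO value was 0.17 (adjusted p = 0.0478 in limma), and the KO-minus-WT difference was 0.23 (adjusted p = 0.0288), against 0.13 ± 0.12 with all libraries (adjusted p = 0.408). With every library at the same total Mrtfb was lower in WT cells with agonist (−0.29, adjusted p = 0.00571 in limma), a value close to the shift of all rows under that scaling, and the KO-minus-WT difference was called for both genes (0.34 for Mrtfa and 0.40 for Mrtfb, adjusted p = 0.0268 and 0.00878).

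Summed, Mrtfa and Mrtfb came to 92.6 ± 8.27 scaled units in WT cells with agonist and 89.5 ± 7.97 in WT cells with vehicle (SD, n = 6 each). In KO cells the sum was 97.7 ± 4.46 with agonist and 89.2 ± 10.6 with vehicle. The level of Srf per summed MRTF level was 4.27 ± 0.648 in WT cells with agonist, against 1.08 ± 0.175 in WT cells with vehicle. In KO cells this ratio was 0.907 ± 0.106 with agonist and 1.11 ± 0.163 with vehicle. By the deposited gene lengths, levels of Srf and of the summed MRTF transcripts were thus close to equal in 3 of the 4 groups. In WT cells with agonist Srf stood above that sum by a factor of 4.27. The RefSeq windows of Mrtfa and Mrtfb hold no CArG box, and 2 of the 3 Mrtfb windows hold the ETS core CCGGAA, as do 14.9% of all windows.

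Among the ternary complex factors, Elk3 was higher with the agonist in both genotypes and lower in KO than in WT cells. Elk3, whose protein is also known as a repressor until it is phosphorylated, had 72.6, 89.1 and 97.1 scaled units in WT cells with agonist, against 61.4, 65.8 and 85.6 in WT cells with vehicle. KO cells had 50.6, 63.5 and 68.4 scaled units of Elk3 with agonist, against 45.7, 47.1 and 62.8 with vehicle. The agonist and vehicle ranges overlapped in each genotype. KO agonist 2 was the lowest library of its group and KO vehicle 6 the highest of its own, the libraries named above for their profiles.

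Elk3 rose by 0.33 ± 0.09 in WT cells with agonist (SE, n = 6 per group; adjusted p = 0.00352 in limma) and by 0.34 ± 0.09 in KO cells (adjusted p = 0.0278). The effects differed by 0.00 ± 0.13 (adjusted p = 0.983 in limma; 95% interval −0.27 to 0.28), and by 0.13 without KO agonist 2 and KO vehicle 6 (adjusted p = 0.331). The WT call was lost under quantile normalization (0.20, adjusted p = 0.0680 in limma) and with every library at the same total (0.09, adjusted p = 0.420). The KO call was lost without any 1 of KO agonist 1, 3, 4, 5 and 6 or KO vehicle 3, 4 and 5 (log2 fold change 0.31 to 0.33, adjusted p between 0.0513 and 0.0634 in limma). With KO agonist 2 and KO vehicle 6 both left out the KO value was 0.46 (adjusted p = 0.00154 in limma).

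Elk1, the founding member of the ternary complex factors, stayed between 13.9 and 17.3 scaled units in all 24 libraries. It had 14.8, 15.9 and 17.3 scaled units in WT cells with agonist, against 14.1, 14.7 and 16.6 in WT cells with vehicle. Its levels in KO cells were 13.9, 14.2 and 15.2 with agonist, against 14.1, 14.9 and 15.2 with vehicle. All 4 ranges overlapped. The agonist effect was 0.10 ± 0.05 in WT cells (adjusted p = 0.0753 in limma; unadjusted 95% interval 0.0009 to 0.19) and −0.04 ± 0.05 in KO cells (adjusted p = 0.638). The KO-minus-WT difference for Elk1 was −0.13 ± 0.07 (adjusted p = 0.107 in limma), and −0.12 without KO agonist 2 and KO vehicle 6 (adjusted p = 0.163). The WT effect passed the test without WT agonist 3 (0.12, adjusted p = 0.0360 in limma) and without WT vehicle 2 (0.13, adjusted p = 0.0190), and without WT vehicle 2 the difference passed too (−0.16, adjusted p = 0.0393). Under quantile normalization the WT effect was 0.15 and the difference −0.19 (adjusted p = 0.00752 and 0.0220 in limma). With every library at the same total the WT effect had the other sign (−0.14, adjusted p = 0.0212 in limma).

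The level of Elk3 per level of Elk1 was 5.44 ± 0.960 in WT cells with agonist and 4.60 ± 0.633 in WT cells with vehicle (SD, n = 6 each). In KO cells it was 4.35 ± 0.440 with agonist and 3.35 ± 0.406 with vehicle. Elk3 was therefore the more abundant ternary complex transcript of the pair in every group. The level of Srf per summed level of Elk1 and Elk3 was 3.88 ± 0.714 in WT cells with agonist and 1.16 ± 0.189 in WT cells with vehicle, against 1.16 ± 0.212 and 1.54 ± 0.268 in KO cells with agonist and with vehicle. The windows of Elk1 and Elk3 hold neither motif.

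**Figure D2:**
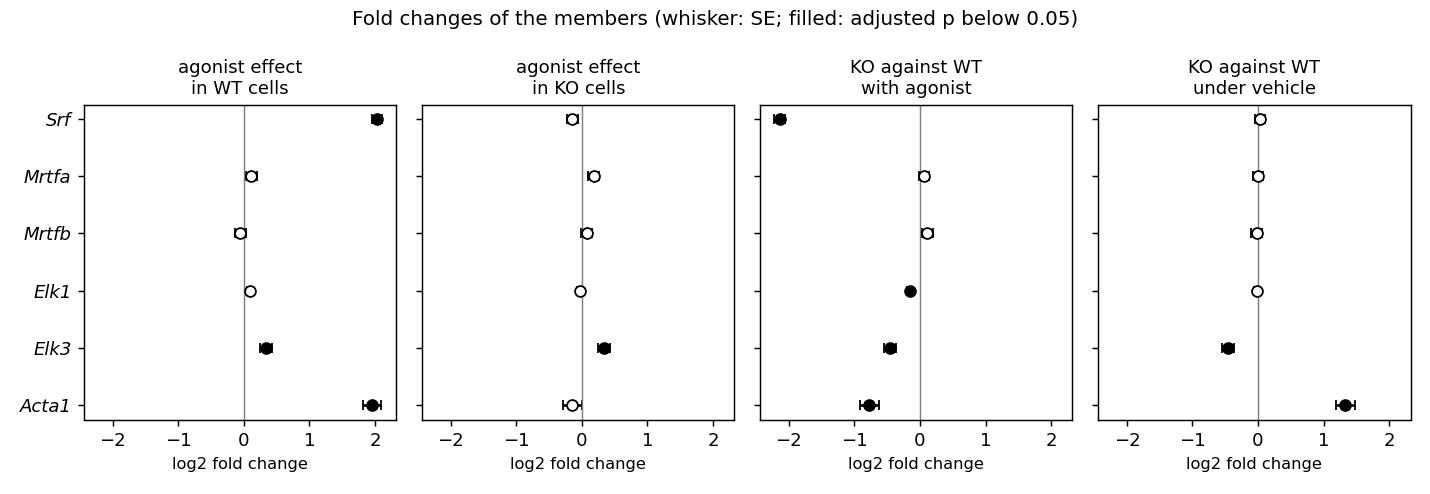
Log2 fold change of each member (x axis) in 4 comparisons, with SE whiskers; filled points have an adjusted p below 0.05 in limma. Srf and Acta1 lie near 2 for the agonist in WT cells and near 0 in KO cells, and Elk3 lies between 0.33 and 0.34 in both.

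Acta1, the muscle actin gene, rose with the agonist in WT cells and was already higher in KO than in WT cells under vehicle. It had 14.4, 18.1 and 20.7 scaled units in WT cells with agonist, against 3.82, 4.19 and 4.88 in WT cells with vehicle, without overlap. Its levels in KO cells were 7.28, 10.8 and 12.2 with agonist, against 7.66, 11.6 and 15.4 with vehicle, ranges that overlapped almost fully. Acta1 rested on 58 to 295 reads per library, far fewer than the 2850 to 17099 of Srf. The labels do not say how reads shared with near-identical actin genes were counted, so its level is uncertain on that account. Acta2, Actc1 and Actg2 are not analysed here.

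The log2 fold change of Acta1 with agonist was 1.96 ± 0.14 in WT cells (SE, n = 6 per group; adjusted p = 1.22e-11 in limma), a mean of 18.0 ± 2.59 against 4.25 ± 0.452 scaled units (SD). In KO cells it was −0.15 ± 0.14 (adjusted p = 0.519 in limma; 95% interval −0.44 to 0.15). The KO-minus-WT difference was −2.10 ± 0.20 (adjusted p = 4.51e-09 in limma). Leaving out KO agonist 2 and KO vehicle 6, these values were −0.12 (adjusted p = 0.570 in limma) and −2.07. Acta1 ranked 114 of 11557 rows by fold change in WT cells, close to Srf.

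Under vehicle, Acta1 was higher in KO than in WT cells by 1.33 ± 0.14 (adjusted p = 3.06e-08 in limma), 11.8 ± 3.27 against 4.25 ± 0.452 scaled units (SD, n = 6 each), without overlap, as for 27.3% of all rows in either direction. With agonist it was lower in KO than in WT cells by the fit (−0.77 ± 0.14, adjusted p = 4.24e-05), 10.4 ± 1.74 against 18.0 ± 2.59 scaled units, again without overlap. Acta1 lies on chromosome 8, whose 631 tested rows had a median KO-against-WT log2 fold change of 0.17 under vehicle, against −0.01 for the other chromosomes. The part of that shift in the Acta1 value was not tested. Without KO vehicle 6 and KO agonist 2 the vehicle value was 1.39. By fold change under vehicle Acta1 ranked 72 of 11557 rows.

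The Acta1 promoter, on the minus strand of chromosome 8 (GRCm38.p6, chr8:123894726-123895025), is shown as the other window of the set with a CArG box, in capitals at −73 to −64.
Acta1 promoter: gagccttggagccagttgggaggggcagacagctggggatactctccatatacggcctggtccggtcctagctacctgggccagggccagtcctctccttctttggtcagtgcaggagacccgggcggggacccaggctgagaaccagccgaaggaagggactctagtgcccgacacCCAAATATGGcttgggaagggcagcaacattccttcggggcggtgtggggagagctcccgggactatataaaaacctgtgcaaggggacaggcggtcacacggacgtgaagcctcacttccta
It holds no ETS core CCGGAA. All 7 genes in the set were matched to RefSeq promoters, with 12 windows in all, and Srf and Acta1 alone had a CArG box. Both were at least 2-fold higher with agonist in WT cells, as were 3.6% of all rows. The members were chosen with earlier results of these data known, and a link between box and rise was not tested.

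**Figure D3:**
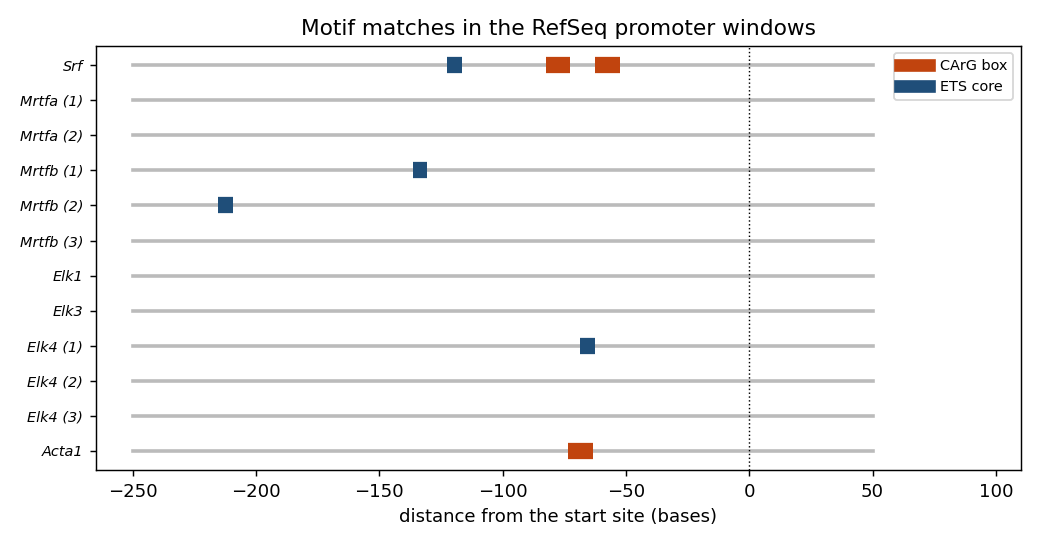
CArG boxes and the ETS core CCGGAA in the 12 RefSeq promoter windows of the 7 genes; the x axis is the distance from the start site in bases, from 250 before to 50 after it. Srf has 2 CArG boxes and 1 ETS core, Acta1 has 1 CArG box, and the windows of Mrtfa, Elk1 and Elk3 hold neither.

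Acta1 was a minor actin transcript in every group. Actb, the cytoplasmic beta-actin gene, averaged 14195 ± 1251 scaled units in WT cells with agonist and 4419.7 ± 330.5 in WT cells with vehicle (SD, n = 6 each), and rose by 1.68 ± 0.06 on the log2 scale (adjusted p = 5.78e-18 in limma). Actg1, the gamma-actin gene, rose by 1.35 ± 0.07 (adjusted p = 2.74e-14 in limma). Acta1 made up 0.0792% ± 0.00621 of the summed level of Actb, Actg1 and Acta1 in WT cells with agonist and 0.0550% ± 0.00391 in WT cells with vehicle. In KO cells it made up 0.148% ± 0.0268 with agonist and 0.160% ± 0.0432 with vehicle. The lowest share in a KO library, 0.0958%, was above the highest share in a WT library, 0.0873%. For Actb and Actg1, KO against WT cells under vehicle did not pass the test, with 4388 ± 222 against 4419.7 ± 330.5 scaled units for Actb.

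Other markers of skeletal and cardiac muscle were few. Of 20 listed, 3 were in the table, Mb, Des and Mylpf, none of which was at 0 in every library, and neither Mb nor Mylpf, the 2 tested, was called higher with agonist in WT cells. Their summed level was 42.2 to 54.8 scaled units in WT cells with agonist and 50.7 to 76.9 in WT cells with vehicle. It was 53.1 to 72.3 in KO cells with agonist and 69.8 to 84.7 in KO cells with vehicle. Mb, the myoglobin gene, fell with agonist in WT cells (−0.38 ± 0.09, adjusted p = 0.000852 in limma) and in KO cells (−0.35 ± 0.09, adjusted p = 0.0207), and was higher in KO than in WT cells under vehicle (0.32 ± 0.09, adjusted p = 0.00440). Of 11 smooth muscle markers Myh11, Tagln and Smtn were in the table, and Smtn, the smoothelin gene and the only one tested, rose with agonist in WT cells (0.38 ± 0.08, adjusted p = 0.000327 in limma). None was at 0 in every library. Their summed level had medians of 104 scaled units in WT cells with agonist and 83.6 with vehicle, where these groups did not overlap, and of 89.6 in KO cells with agonist and 79.3 with vehicle. Whether other cells in the cultures contributed to Acta1 was not tested.

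**Figure D4:**
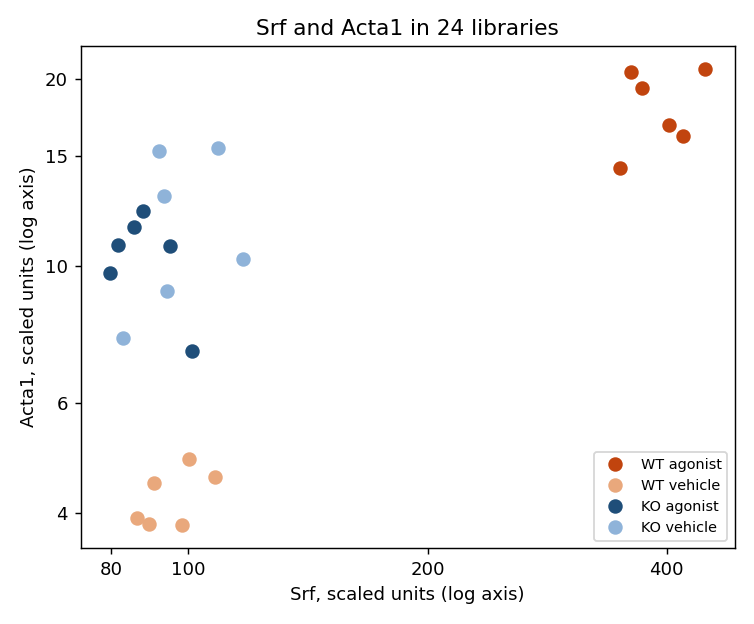
Srf (x axis) against Acta1 (y axis), both in scaled units on log axes, in 24 libraries. WT agonist libraries lie apart at the upper right, and at Srf levels of 79.8 to 117 the KO libraries hold 7.28 to 15.4 scaled units of Acta1, against 3.82 to 4.88 in WT vehicle libraries.

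Counted over the set, 3 of the 6 members with values changed with agonist in WT cells, all upward, where 57.2% of all rows were called and 28.6% were called higher. In KO cells 1 of 6 was called, Elk3, against 9.3% of all rows. The KO-minus-WT difference was called for 2 of 6, Srf and Acta1, against 41.1% of all rows. The number called in WT cells is close to the background of this table. The KO background rests on few libraries, with 1075 rows called as deposited, 284 to 1851 when 1 library was left out and 2623 without KO agonist 2 and KO vehicle 6. The groups of WT cells with and without agonist did not overlap for 2 of 6 members, against 37.5% of all rows, and those of KO cells overlapped for all 6, where 4.53% of rows had no overlap.

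Called rows split evenly by direction as deposited, 3302 higher and 3303 lower with agonist in WT cells. Under quantile normalization the split was 2685 to 4134, and with every library at the same total it was 1432 to 6948. In KO cells with agonist it was 539 to 536 as deposited and 642 to 318 at the same total. The split of the KO-minus-WT difference was 2265 to 2481 as deposited, 3120 to 1992 under quantile normalization and 6417 to 1129 at the same total. For KO against WT cells with agonist the corresponding splits were 3695 to 3711, 4532 to 2989 and 7281 to 1724. Srf and Acta1 kept their direction and their calls for the agonist in WT cells under each of these scalings, with log2 fold changes from 1.77 to 2.04 for Srf and from 1.67 to 2.07 for Acta1 over the 12 settings other than single libraries left out.

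Between the genotypes under vehicle, 2 of the 6 members differed, against 47.8% of all rows. Acta1 was the higher of them in KO cells and Elk3 the lower. Elk3 averaged 49.6 ± 6.56 scaled units in KO cells and 68.5 ± 8.91 in WT cells under vehicle (SD, n = 6 each), a log2 fold change of −0.46 ± 0.09 (adjusted p = 0.000198 in limma). The ranges met only through KO vehicle 6, at 62.8, which exceeded the lowest WT vehicle library at 61.4, and without it and KO agonist 2 the value was −0.53 (adjusted p = 3.53e-06 in limma). Elk3 lies on chromosome 10, whose 542 tested rows had a median of −0.16 in this comparison, against 0.01 for the other chromosomes, and its part in the Elk3 value was not tested. Srf differed by 0.03 ± 0.08 (adjusted p = 0.745 in limma; 95% interval −0.13 to 0.20), Mrtfa by −0.00 ± 0.08 (adjusted p = 0.988), Mrtfb by −0.02 ± 0.08 (adjusted p = 0.874) and Elk1 by −0.01 ± 0.05 (adjusted p = 0.824). For these 4 genes the sign turned under other scalings or when 1 library was left out, with no call in any of them.

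With agonist, 4 of the 6 members differed between KO and WT cells, all lower in KO cells as deposited, against 64.1% of all rows called and 32.1% called lower. These values share libraries with the agonist effects above. Srf was lower by 2.14 on the log2 scale (−2.14 ± 0.08, adjusted p = 8.45e-18 in limma), 88.4 ± 8.16 scaled units in KO cells against 392 ± 37.4 in WT cells (SD, n = 6 each). Elk3 was lower by the same size as under vehicle (−0.46 ± 0.09, adjusted p = 0.000115 in limma), but with every library at the same total the value was −0.17 (adjusted p = 0.118). Elk1 was lower in KO cells by the fit (−0.15 ± 0.05, adjusted p = 0.00736 in limma) and higher in them with every library at the same total (0.13, adjusted p = 0.0242). Mrtfa and Mrtfb did not pass the test as deposited (0.06 ± 0.08 and 0.11 ± 0.08, adjusted p = 0.495 and 0.250), and at the same total they were higher in KO cells (0.35 and 0.39, adjusted p = 0.00152 and 0.000379). With KO agonist 2 and KO vehicle 6 left out, the values were −2.18 for Srf, −0.40 for Elk3, −0.14 for Elk1 and −0.68 for Acta1, each still called (adjusted p at most 0.0125 in limma). The no-overlap criterion was met by Srf, Elk3 and Acta1, 3 of 6, all lower in KO cells, against 46.3% of all rows and 24.6% lower.

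Ordered by mean level per length, Srf came first in every group. In WT cells with agonist the order was Srf, Elk3, Mrtfa, Mrtfb, Acta1 and Elk1, and among neighbours only Acta1 and Elk1 overlapped between libraries. In WT cells with vehicle Acta1 moved to the last place, below Elk1 without overlap, and Elk3 and Mrtfa overlapped. In KO cells with agonist the order was that of WT vehicle, again with overlap of Elk3 and Mrtfa. In KO cells with vehicle Mrtfa stood above Elk3 and Elk3 above Mrtfb, each pair overlapping, and Elk1 overlapped with Acta1 at the lower end.

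Most tested genes listed as usual targets of the SRF branches moved with the agonist in WT cells. These lists were chosen with earlier results of these data known, so the counts describe them. Whether the branches were active was not tested. Of 35 targets listed for the MRTF branch 31 were tested, and 29 rose and 1 fell, where 28.6% of all rows were called in each direction. Their median log2 fold change was 0.94, against −0.01 for all rows. Ccn1, a matricellular protein gene, rose by 3.66 ± 0.11 (SE, n = 6 per group; adjusted p = 2.04e-19 in limma), to 6354 ± 751 scaled units in WT cells with agonist against 501 ± 58.9 with vehicle. The levels in KO cells were 815 ± 155 with agonist and 851 ± 103 with vehicle. The focal adhesion genes Zyx and Vcl, for zyxin and vinculin, rose by 1.97 ± 0.06 and 1.66 ± 0.08, and Lima1, an actin crosslinker gene, by 0.84 ± 0.04 (adjusted p at most 1.85e-15 in limma). The exceptions were Fhl1, a LIM domain gene best known from muscle, which fell (−0.20 ± 0.07, adjusted p = 0.0216 in limma), and the Notch ligand gene Jag1 (−0.15 ± 0.07, adjusted p = 0.0619). With every library at the same total the counts were 28 higher and 2 lower. Fhl2, which is in this list and whose LIM protein binds SRF, rose by 3.06 ± 0.16 (adjusted p = 1.26e-14 in limma).

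All 15 tested targets of the ternary complex branch rose in WT cells with agonist, of 18 listed, with a median of 2.31, and 14 of them were called higher at the same total. The AP-1 genes Fosb and Fosl1 rose by 4.68 ± 0.13 and 4.31 ± 0.11 (SE, n = 6 per group; adjusted p = 1.08e-19 and 5.68e-20 in limma). Dusp5, which encodes a nuclear phosphatase of ERK, rose by 4.39 ± 0.14, the nuclear receptor gene Nr4a1 by 3.35 ± 0.15 and Arc, a neuronal plasticity gene, by 3.05 ± 0.12 (adjusted p at most 7.16e-16). Srf, with 2.03, and Acta1, with 1.96, lay below the median of this list and above that of the MRTF list.

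In KO cells the medians of both lists were near 0 with agonist. Of the 31 MRTF targets 3 were called higher and 1 lower, with a median of −0.01, where 4.66% of all rows were called higher and 4.64% lower. The 3 were Tpm2 (0.61 ± 0.15), Tln1 (0.31 ± 0.08) and Myo1e (0.22 ± 0.05), with adjusted p between 0.0201 and 0.0207 in limma, and the 1 was Fhl1 (−0.25 ± 0.07, adjusted p = 0.0373). Of the 15 ternary complex targets none was called higher and Fosl1 was called lower (−0.37 ± 0.11, adjusted p = 0.0437 in limma), with a median of −0.02. Without KO agonist 2 and KO vehicle 6 the counts were 3 higher and 2 lower of 31, and 0 higher and 2 lower of 15. With every library at the same total they were 3 higher and 0 lower of 31, and 1 higher and 0 lower of 15. The KO-minus-WT difference was called and negative for 28 of 31 and 14 of 15, where 21.5% of all rows were called lower, and for as many genes without KO agonist 2 and KO vehicle 6.

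**Figure D5:**
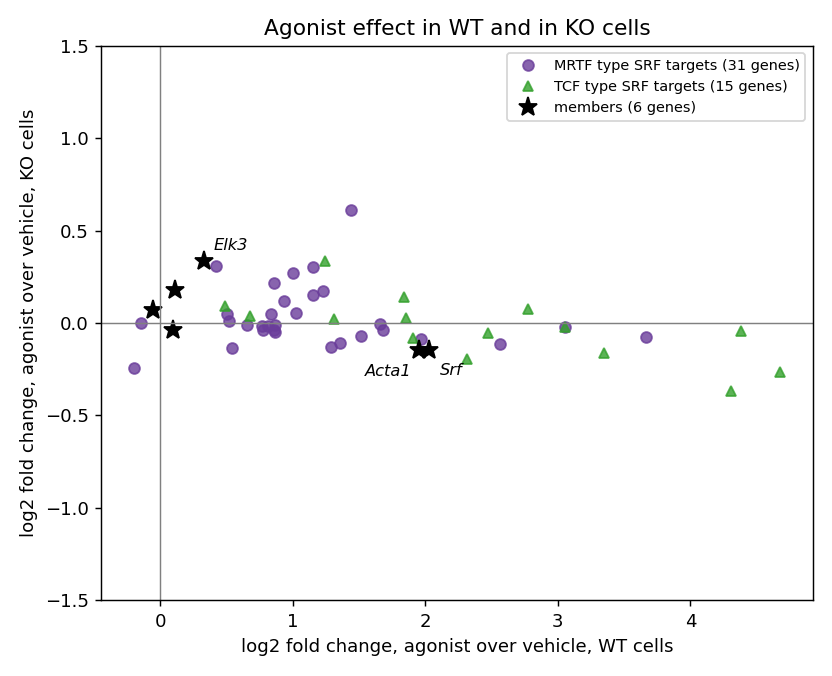
Log2 fold change with agonist in WT cells (x axis) and in KO cells (y axis) for tested genes of the MRTF target list, the ternary complex target list and the 6 members (stars). Target genes spread to 4.68 along the x axis and stay between −0.37 and 0.61 on the y axis, with Srf and Acta1 among them near 2 on the x axis.

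Under vehicle, 5 of the 31 MRTF targets were higher and 8 lower in KO than in WT cells, with a median of −0.03, where 23.9% of all rows were called in each direction. Fhl1 (−0.71 ± 0.07) and Jag1 (−0.58 ± 0.07) were among the lower ones (adjusted p = 1.39e-08 and 8.05e-08 in limma). Of the 15 ternary complex targets Fosl1 was higher (0.79 ± 0.11, adjusted p = 3.82e-06 in limma) and 6 were lower, among them Klf2 (−0.87 ± 0.12, adjusted p = 1.69e-06). Without KO agonist 2 and KO vehicle 6 the counts were 7 higher and 9 lower of 31, and 1 higher and 6 lower of 15. The higher level of Acta1 in KO cells under vehicle stood beside these counts, and the lists themselves were not tested.

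CArG boxes were searched in the RefSeq windows of both target lists, and those of genes with values in this text are shown with 8 bases on each side, box in capitals, to be set beside the boxes of Srf and Acta1.
Srf, −82: ggggctcgCCATATAAGGagcggcct
Srf, −62: cggcctcgCCATAAAAGGaaacattg
Acta1, −73: cccgacacCCAAATATGGcttgggaa
Actg1, −90: aaagatcgCCATATATGGacatgttc
Vcl, −227: cactatgcCCTTATAAGGagcgcccc
Lima1, −47: cactttgtCCTTATAAGGctatcctg
Fhl2, −96: tttagagaCCAAAAAAGGcttgcagg
Fhl2, −31: gcgtgtgtCCTTATATGGtcaaatga
Myo1e, −32: tgaattctCCATTTATGGacagattg
Dusp5, −82: ggaaatacCCATATTTGGccttatat
Dusp5, −72: atatttggCCTTATATGGgcactcac
Fhl1, −102: ttggatcaCCTAAAATGGttaagaat
The number is the first base of the box from the start site, and the Fhl2 boxes lie in different windows. Vcl and Lima1 share the same 10 letters in the box, and Dusp5 holds 2 boxes side by side where Srf holds 2 that lie apart. Fhl1, which fell in WT cells with agonist, holds a box as well. Of the 35 windows of the MRTF targets 10 (28.6%) hold a CArG box, against 1.63% of all windows. They belong to 9 of the 31 listed genes that have a window (29.0%), a set counted apart from the tested genes. Of the 18 windows of the ternary complex targets 5 (27.8%) hold a box, but 4 of these are alternative promoters of Egr2. Thus 2 of the 13 listed genes that have a window (15.4%) hold a box. The lists were drawn from known SRF targets, so this share is not independent of them.

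Of 17 tested genes of the ERK route 7 were called higher and 1 lower with agonist in WT cells (median 0.09), 8 of 17 called in all where 57.2% of all rows were. At the same total 3 were higher and 9 lower, in a table with 1432 rows higher and 6948 lower. Nras, the gene of a small GTPase, rose by 0.43 ± 0.04 (adjusted p = 1.61e-10 in limma), and Mapk3, which encodes ERK1, fell (−0.12 ± 0.04, adjusted p = 0.0158). In KO cells none of the 17 was called, and 1 was called higher without KO agonist 2 and KO vehicle 6.

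Of 14 other ETS factors tested, 8 were called higher and 2 lower with agonist in WT cells, where 28.6% of all rows were called in each direction. At the same total the counts were 6 and 5, against 1432 and 6948 rows. Ets2 rose by 1.77 ± 0.07 and Ets1 by 1.28 ± 0.05, while the epithelial factor gene Ehf fell (−0.94 ± 0.08), each with an adjusted p of at most 8.84e-11 in limma. Among SRF relatives the MADS box gene Mef2d rose by 1.01 ± 0.09 and Mef2a by 0.34 ± 0.08 (adjusted p = 5.45e-10 and 0.000592 in limma), the second of which lost its call at the same total.

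By the correlation of log2(scaled units + 0.5) over the 24 libraries, the genes most like Srf were Ptger4 (r = 0.997), Fosl2 (0.996), Phlda1 (0.995), Fosb (0.995) and Noct (0.994). Since WT agonist libraries stand apart for each of these, the measure mostly reads that group. After each group's mean was taken away, Fosb (0.858), Ptger4 (0.856) and Fosl2 (0.836) were the most like Srf within groups. The genes most like Acta1 were Sema6a (r = 0.948 over 24 libraries), 9930111J21Rik1 (0.944) and 9930111J21Rik2 (0.942). The last pair have near-identical names and may share reads, which was not tested. Sema6a rose by 1.72 ± 0.12 with agonist in WT cells and was higher in KO than in WT cells under vehicle by 0.97 ± 0.12 (adjusted p = 3.69e-12 and 2.33e-07 in limma). These correlations describe the libraries, which share their groups, and carry no p-value.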

How the data were processed

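The authors deposited 1 table with a signal value per library and gene and a gene length (other, in bases). The submitters' processing notes name GRCm39, DESeq, DESeq2 and STAR 2.7.8a without their roles; the annotation and strand setting are not given in the sources used here. The deposited signal times gene length was a multiple of 0.1, and a factor per library (0.754 to 1.46) gave whole reads for at least 99.8% of values within 0.05, so it was read as reads per library factor and length. Groups and replicate numbers came from sample titles.

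The table was multiplied by 92.1 (mean column total 1000000). Log2(scaled units + 0.5) of the 11557 rows averaging 1 or more entered 1 limma 3.58.1 model (R 4.3.3) with a term per group, trend and robust moderation, and 20 residual degrees of freedom; the pseudocount understates changes of low genes. Tests were two-sided, with Benjamini-Hochberg adjustment over all rows and a threshold of 0.05. An error after a fold change is the SE. Rows with a name used more than once (393) or joined names (333) were tested but not listed. A simulation of the 11557 rows used normal noise independent between libraries, with 100 rows changed at each of 2 sizes in WT cells with agonist. It recovered 89 of 100 changes of log2 0.585 and 98 of 100 of log2 1. There were 11 false calls among the unchanged rows. In the real data 57.2% of rows were called for this effect, so these rates need not hold for them. The members and lists were chosen with earlier results of these data known, and lists share genes (Actb, Actg1 and Fhl2). Named genes were the members, Gpr39, Actb, Actg1, the 5 genes most like Srf and 3 most like Acta1 over libraries, the 3 most like Srf within groups, and of each list up to 5 called genes for the agonist in WT cells and up to 2 for KO against WT under vehicle, by smallest adjusted p, of which some, and one list, are not reported here; Fhl1 and Jag1 in WT cells, Mapk3, Tpm2, Tln1, Myo1e, Mb, Smtn and Egr2 were named after their values were seen. Alternatives were 2 pseudocounts (0.1 and 2), no filter and a filter at 5, 3 scalings, separate fits, plain moderation, a replicate block, voom on recovered reads, each library left out and, added after the data were seen, KO agonist 2 and KO vehicle 6 left out together. Promoter windows came from RefSeq on GRCm38.p6, a different build from the one named for the table, and were matched by symbol.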

Additional observations from a re-analysis of the deposited data

Results flagged for a closer look

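Within groups, 4 of the 24 sets of 6 libraries formed by 6 members and 4 groups had a library far from the others, with a gap to the nearest one above Dixon's critical share of the group's range; chance gives about 1 in 20 groups. Elk3 accounted for 3 of them. KO agonist 2 held 50.6 scaled units of Elk3, with the next library at 62.6, and KO vehicle 6 held 62.8, with the next at 48.5. WT vehicle 1 held 85.6 scaled units of Elk3, with the next at 69.6. Mrtfb was 48.1 scaled units in KO vehicle 6, with the next library at 34.2. The agonist effect differed between genotypes by −2.18 for Srf (adjusted p = 3.57e-14) and by −2.10 for Acta1 (adjusted p = 4.51e-09), as KO minus WT effect in limma. For both genes all 6 WT agonist libraries lay above all WT vehicle libraries. Of all rows, 37.5% had no overlap between these groups in either direction. KO libraries with and without agonist overlapped for both genes.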

How the results depend on the processing

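Among 1074 values of 30 member results under 36 alternatives, 1017 kept their direction and their side of the threshold, 32 changed sign (2 of them with an adjusted p below 0.05), 14 passed the threshold newly and 11 no longer passed it. Every agonist effect in WT cells and every KO-minus-WT difference of Srf and Acta1 kept its sign and its call.

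Under quantile normalization the agonist effect in WT cells was 0.15 for Elk1 and 0.20 for Elk3, the Elk1 difference between genotypes was −0.19, and KO over WT under vehicle was 0.013 for Mrtfa, 0.0017 for Mrtfb and 0.0019 for Elk1. With every library at the same total the WT effects were −0.13 for Mrtfa, −0.29 for Mrtfb, −0.14 for Elk1 and 0.091 for Elk3. That scaling called 7546 rows for the difference between genotypes, with 0.34 for Mrtfa, 0.40 for Mrtfb and 0.13 for Elk1. It gave 0.0092 for Mrtfa in KO over WT under vehicle, and in KO over WT with agonist 0.35 for Mrtfa, 0.39 for Mrtfb, 0.13 for Elk1 and −0.17 for Elk3. This scaling by construction moves all rows where column totals differ.

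Leaving out KO agonist 2 and KO vehicle 6 together, chosen after seeing the data, called 2623 rows for the agonist in KO cells, with 0.24 for Mrtfa and 0.17 for Mrtfb, and gave a Mrtfb difference of 0.23. With 1 library left out, the rows called for the agonist in KO cells numbered 284 (without KO agonist 1) to 1851 (without KO agonist 2), against 1075, and were 589, 429, 481 and 441 without KO agonist 3, 4, 5 and 6 and 663 and 610 without KO vehicle 3 and 5. The ranges were 0.075 to 0.13 for Elk1 in WT cells, 0.31 to 0.41 for Elk3 in KO cells, and for the differences between genotypes 0.10 to 0.22 for Mrtfb (called without KO vehicle 6), −0.16 to −0.11 for Elk1 and −0.061 to 0.074 for Elk3. For KO over WT under vehicle they were −0.020 to 0.080 for Srf, −0.045 to 0.049 for Mrtfa, −0.11 to 0.012 for Mrtfb and −0.030 to 0.017 for Elk1. The cause of these shifts was not tested.

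Replicate numbers did not clearly pair libraries. The median correlation of the deviations of 36 same-numbered pairs was 0.0174, and 10 exceeded 0.1. For 180 pairs with different numbers the median was 0.00355, and 32 exceeded 0.1. Of 24 libraries, 5 correlated best with a library of their own number. With a replicate block 6593 rows were called for the agonist in WT cells and 1122 in KO cells, and no member call changed. The voom fit on recovered reads called 6573 and 1126. Acta1, at 58 to 83 reads per WT vehicle library, has the fewest reads of the set.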
